A study of Saccharomyces cerevisiae with 24 samples.

Results

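The ribosome biogenesis factors described here are 59 genes of budding yeast, out of 6692 open reading frames (ORFs) with mRNA-seq counts. They were chosen by name alone: a row was taken where its standard name was UTP, NOP, RRP, NOC, NSA or NUG followed only by a number. No measured value entered the choice. The 6 families hold 6 proteins of the UTP-A subcomplex, 4 of the UTP-B subcomplex, 19 other small subunit processome and pre-40S factors, 4 core proteins of small nucleolar ribonucleoprotein particles (snoRNPs), 19 factors of 60S assembly and 7 subunits of the RNA exosome.

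In yeast, RNA polymerase I transcribes a long precursor of ribosomal RNA in the nucleolus. The UTP-A complex binds the start of this precursor, UTP-B and the U3 snoRNP follow, and the resulting small subunit processome folds and cleaves the part that becomes the 40S subunit. Box C/D and box H/ACA snoRNPs modify the RNA, another set of factors builds the 60S subunit, and the exosome trims or destroys RNA from its 3′ end. The genes of these factors are known as a regulon that is switched with growth and nutrients, and many share 2 promoter elements, PAC and RRPE, which are bound by the repressors Dot6 and Tod6 and by Stb3, respectively.

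RNA came from 3 strains in 2 media, with 4 libraries of each strain in each medium from replicate experiments, 24 in all. WT is OCY1131, a MATa strain derived from BY4741 (his3Δ1 leu2Δ0 met15Δ0 ura3Δ0) in which the histone H3 gene HHT2 was replaced and then restored. H3L126M and H3L126H were made from it with CRISPR-Cas9 and carry leucine 126 of histone H3 changed to methionine or histidine at both H3 loci, HHT1 and HHT2, so all strains share the auxotrophies. Each mutant is a single strain, and a change that its isolate carries elsewhere cannot be told apart from the histone mutation. Fermentative growth was in YPD, with glucose, and oxidative growth in YPEG, which has ethanol and glycerol as carbon sources, and the cells were collected after 2 to 3 doublings. In YPD the libraries held 11465913 to 13024479 counts for WT, 10583360 to 12355689 for H3L126M and 9005368 to 11097582 for H3L126H, and in YPEG 8570789 to 10812303, 10054783 to 13133489 and 11003856 to 15577958. The labelled media could be checked: 10 genes expected to be high with ethanol and glycerol had a median log2 change of 5.93 from YPD to YPEG in WT, and 6 genes expected to be high with glucose had -3.10. The mating type was not settled by the counts. The α-specific regulator gene MATALPHA1 had 0 counts in every library and MATALPHA2 at most 4. Other genes known as α-specific were not at 0, with at most 245 raw counts in a library for STE3, 381 for MF(ALPHA)1, 118 for MF(ALPHA)2 and 685 for SAG1.

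The promoters of 4 members show the elements by which this group of genes is known. Each line holds 300 bases of the R64 (sacCer3) genome, 250 before and 50 after the first base of the ORF, credited to RefSeq and written on the strand of the gene. Capitals mark GATGAG, the core of PAC, or its reverse complement CTCATC, and AAAATTTT, the core of RRPE, which is its own reverse complement. NOP56 and UTP23 are shown because they fell most from YPD to YPEG in WT, UTP25 because it stood at the other end of that order, and UTP6 because it was lowest in H3L126M relative to WT in YPEG, a choice made after its values were seen. The windows are chrIV:1358853-1359152 (minus strand) for UTP6, chrIX:193146-193445 (minus strand) for UTP25, chrXII:545847-546146 (plus strand) for NOP56 and chrXV:333342-333641 (plus strand) for UTP23.
UTP6: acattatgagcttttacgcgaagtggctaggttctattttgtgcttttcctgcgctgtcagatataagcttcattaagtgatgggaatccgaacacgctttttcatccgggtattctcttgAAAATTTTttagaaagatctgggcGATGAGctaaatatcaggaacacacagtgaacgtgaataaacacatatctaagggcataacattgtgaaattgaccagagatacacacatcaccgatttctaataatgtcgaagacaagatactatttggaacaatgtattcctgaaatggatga
UTP25: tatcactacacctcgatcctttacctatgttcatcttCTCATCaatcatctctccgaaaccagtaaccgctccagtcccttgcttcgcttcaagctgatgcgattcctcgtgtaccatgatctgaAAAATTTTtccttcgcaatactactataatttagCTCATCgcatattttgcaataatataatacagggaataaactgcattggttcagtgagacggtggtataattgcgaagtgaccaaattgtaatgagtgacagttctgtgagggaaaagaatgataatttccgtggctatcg
NOP56: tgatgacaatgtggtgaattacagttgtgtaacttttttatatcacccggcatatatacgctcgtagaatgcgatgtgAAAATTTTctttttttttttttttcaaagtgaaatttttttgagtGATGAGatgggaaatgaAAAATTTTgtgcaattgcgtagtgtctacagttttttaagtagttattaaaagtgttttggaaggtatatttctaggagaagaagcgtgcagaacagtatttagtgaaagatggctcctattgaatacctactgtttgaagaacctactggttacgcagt
UTP23: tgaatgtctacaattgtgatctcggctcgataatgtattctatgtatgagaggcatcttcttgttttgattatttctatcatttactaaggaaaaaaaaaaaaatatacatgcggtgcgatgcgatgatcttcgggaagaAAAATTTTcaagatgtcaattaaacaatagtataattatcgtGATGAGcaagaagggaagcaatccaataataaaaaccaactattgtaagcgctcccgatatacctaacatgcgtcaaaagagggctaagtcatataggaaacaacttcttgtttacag

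In UTP6, the PAC core began 105 bases before the start codon and the RRPE core 129 bases before it. UTP25 held 2 PAC cores, at 213 and 91 bases, around an RRPE core at 125. NOP56 had the PAC core at 127 bases between RRPE cores at 172 and 110, and UTP23 had an RRPE core at 110 and a PAC core at 68. GATGAG on either strand occurred in 49 of the 59 members (83.1%), against 20.4% of 5985 promoters of the same length in the table. AAAATTTT occurred in 37 members (62.7%) against 9.02%, and both in 32 (54.2%) against 4.39%. The exosome genes stood apart by this count, with PAC in 3 of 7, RRPE in 1 and both in none, whereas all 4 UTP-B genes and all 4 snoRNP genes held PAC. A match of these letters is a description of the sequence and not a site of binding.

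All 59 members passed the filter on low counts in each comparison, so no member was left out. Their expression in WT in YPD, as CPM (counts scaled to a common library size by TMM) divided by the coding length in kb, had a median of 155 CPM per kb, against 49.0 per kb over all genes tested, and 58 of 59 lay above that value. The highest per length were NOP10, a small protein of the H/ACA snoRNP core, at 1447 ± 183 per kb (SD, n = 4), and NOP1, the methyltransferase of box C/D snoRNPs, at 1174 ± 204 per kb. The lowest was RRP17, an exonuclease of 60S assembly, at 29.5 ± 4.34 per kb. RRP17 also set the depth limit, with 87 to 276 raw counts per library. No ORF of a member overlapped another RefSeq gene.

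The 4 WT libraries in YPD did not form a uniform group for these genes. Relative to their mean, the median of all 59 members was -0.14 and -0.20 on the log2 scale in replicates 1 and 2 and 0.12 and 0.21 in replicates 3 and 4. UTP20, a large scaffold protein of the processome, had 285 and 288 CPM in replicates 1 and 2 but 572 and 622 CPM in replicates 3 and 4. A list of 14 genes induced by stress moved the other way, with library medians of 0.97 and 0.95 in replicates 1 and 2 and -0.61 and -1.23 in replicates 3 and 4. In H3L126M and H3L126H in YPD, the member medians of the 8 libraries lay between -0.14 and -0.04 and the stress medians between -0.34 and 0.40. The part of this difference in the results was not tested, and the comparisons that rest on WT in YPD are given with and without each of the pairs. Shares of all genes called are given only for the fits with all libraries, so counts without a pair cannot be set against a share. Replicates 1 and 2 and replicates 3 and 4 of WT in YPEG had cytosolic ribosomal protein medians of -0.82 and -0.77 and of -1.33 and -1.47, and were treated likewise.

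**Figure D1:**
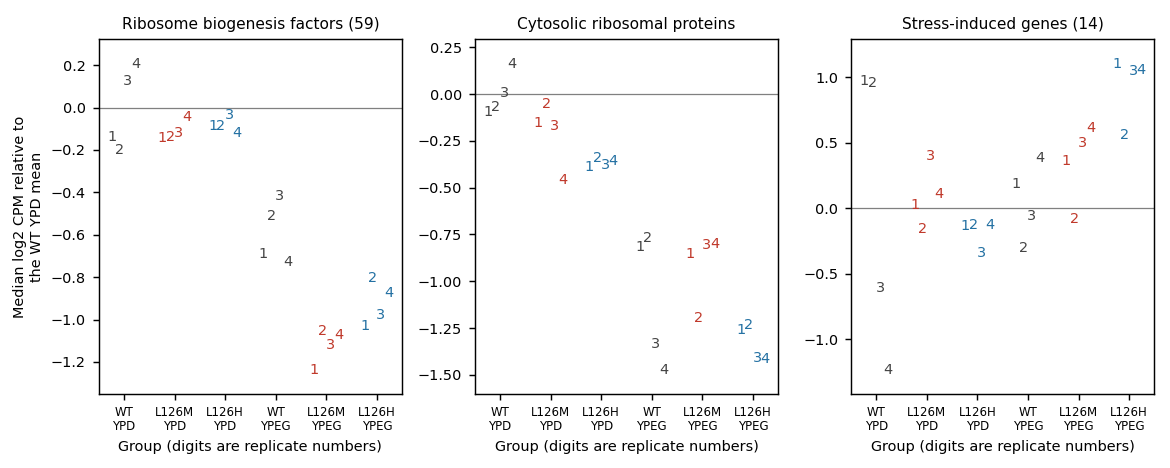
Median log2 change of a gene list in each of the 24 libraries, relative to the mean of the 4 WT libraries in YPD, for the members and for comparison lists; each point is a library and the x axis gives strain and medium. The members sit at -0.73 to -0.42 in WT in YPEG, at -1.24 to -1.06 in H3L126M and at -1.03 to -0.80 in H3L126H, and the WT libraries in YPD are spread from -0.20 to 0.21.

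The first comparison asks how expression of these genes in the oxidative medium differed from that in the fermentative medium. In all 3 strains the members were lower in YPEG. A member is called at an adjusted p below 0.05 (quasi-likelihood test of edgeR on raw counts with TMM scaling, Benjamini-Hochberg over all genes tested). In WT, 50 of 59 were lower and none higher, with a median log2 change of -0.60, where 67.4% of all 6082 genes tested were called and 33.2% were called lower. All 59 were lower in H3L126M (median -0.92, 67.4% of all genes called, 33.9% lower) and 58 in H3L126H (median -0.83, 67.5% of all genes called, 31.0% lower). At least a 2-fold fall was called for 7 members in WT, 26 in H3L126M and 18 in H3L126H, against 21.8%, 21.4% and 19.8% of all genes in either direction. Counts are relative to all mRNA of a library, so a fall of these genes and a rise of other mRNA cannot be told apart. Less RNA of these genes per cell and fewer cells that express them cannot be told apart either. With library size alone as the scale, where the median of all genes in WT moved to 0.38, 28 members were lower and 3 higher in WT, with a median of -0.24. Without WT YPD replicates 3 and 4, 35 members were lower and 5 higher in WT, with a median of -0.36, and without replicates 1 and 2, 55 were lower, with a median of -0.72.

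**Figure D2:**
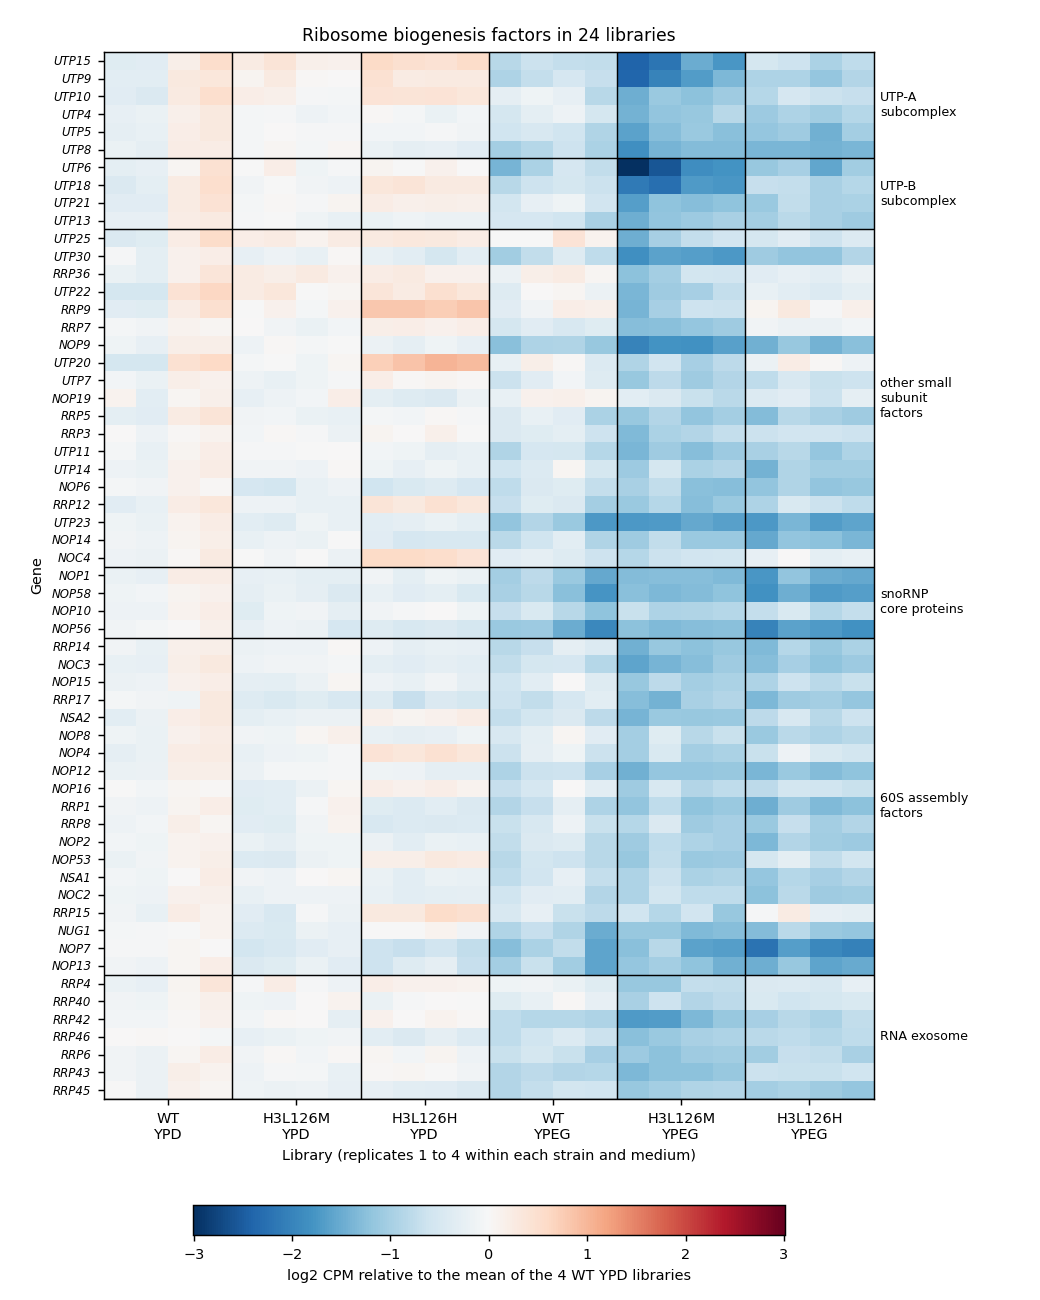
Log2 CPM of each of the 59 members (rows, grouped by role) in each of the 24 libraries (columns, grouped by strain and medium), relative to the mean of the gene in WT in YPD; blue is lower and red is higher. The 12 YPEG columns are blue for most rows, most deeply for UTP6 in H3L126M (14.5 CPM in replicate 1 against 96.1 to 161 CPM in WT in YPD), and the first 2 and last 2 WT columns in YPD differ in colour.

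The snoRNP core genes fell most in WT, with a median of -1.14 for 4 genes, all called. NOP56 (YLR197W, chromosome XII 546097-547611), a core protein of box C/D snoRNPs, had 879, 910, 968 and 1062 CPM in WT in YPD and 439, 447, 339 and 250 CPM in YPEG. The groups did not overlap, and the log2 change was -1.37 (SE 0.13, edgeR adjusted p = 1.93e-09). Its partner NOP58 (YOR310C, chromosome XV 896825-898360) went from 760, 784, 867 and 896 CPM to 421, 464, 345 and 241 CPM, a log2 change of -1.17 (SE 0.13, edgeR adjusted p = 3.06e-08). In WT, both genes were lower in every YPEG library than in any YPD library, and among the WT libraries both were lowest in YPEG replicate 4. UTP23 (YOR004W, chromosome XV 333592-334356), which acts with the snR30 snoRNP, had 154, 146, 181 and 195 CPM in YPD and 73.9, 91.9, 77.7 and 50.4 CPM in YPEG (-1.20, SE 0.12, edgeR adjusted p = 8.92e-09). These 3 genes also had the largest falls in H3L126H, at -1.33 (NOP56), -1.33 (NOP58) and -1.32 (UTP23) on the log2 scale.

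At the other end in WT stood 3 processome genes whose values in both media overlapped. UTP25 (YIL091C, chromosome IX 191030-193195), a helicase-like protein, had 132, 139, 209 and 262 CPM in YPD and 178, 178, 237 and 191 CPM in YPEG, a log2 change of 0.08 (SE 0.17, edgeR adjusted p = 0.705). Its lowest values were those of WT YPD replicates 1 and 2, and without replicates 3 and 4 the change was 0.55 and called. RRP36 (YOR287C, chromosome XV 850937-851839) had 62.8, 59.1, 78.2 and 92.6 CPM in YPD and 63.6, 81.8, 85.3 and 74.97 CPM in YPEG, a log2 change of 0.06 (SE 0.13, edgeR adjusted p = 0.695). It too was called higher without WT YPD replicates 3 and 4, at 0.35. NOP19 (YGR251W, chromosome VII 995639-996229) had 42.9, 32.2, 42.1 and 44.3 CPM in YPD and 34.5, 43.8, 44.6 and 42.8 CPM in YPEG, a log2 change of 0.04 (SE 0.12, edgeR adjusted p = 0.812). With library size alone as the scale, where the median of all genes moved to 0.38, the changes of UTP25, RRP36 and NOP19 were called, at 0.45, 0.43 and 0.40.

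In H3L126M the order was different, and the UTP-A and UTP-B genes fell most, with medians of -1.37 over 6 genes and -1.59 over 4, all of them at least 2-fold lower. UTP6 (YDR449C, chromosome IV 1357580-1358902), a UTP-B subunit, had 115, 134, 108 and 113 CPM in YPD and 14.5, 19.7, 32.0 and 33.9 CPM in YPEG. The groups were far apart, with a log2 change of -2.22 (SE 0.22, edgeR adjusted p = 2.68e-09). UTP15 (YMR093W, chromosome XIII 454015-455556), a UTP-A subunit, had 144, 159, 137 and 134 CPM in YPD and 23.0, 26.7, 43.1 and 36.5 CPM in YPEG (-2.14, SE 0.17, edgeR adjusted p = 1.10e-10). UTP9 (YHR196W, chromosome VIII 491931-493658), also of UTP-A, had 247, 282, 237 and 234 CPM in YPD and 44.3, 57.4, 72.2 and 91.4 CPM in YPEG (-1.91, SE 0.17, edgeR adjusted p = 5.99e-10). In all of these genes, replicates 1 and 2 of H3L126M in YPEG were the lowest libraries. The smallest falls in this strain were those of NOP19 (-0.49, edgeR adjusted p = 0.00148), the 60S factor RRP15 (-0.53, edgeR adjusted p = 0.00219) and NOC4, which works with NOP14 on the small subunit (-0.58, edgeR adjusted p = 1.46e-05).

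In H3L126H, NOP19 was the member that was not called, at -0.09 (SE 0.13, edgeR adjusted p = 0.531), with 32.6, 30.8, 29.6 and 35.4 CPM in YPD and 30.1, 31.4, 25.6 and 33.5 CPM in YPEG. The next smallest changes were -0.31 for RRP7, a late processome factor, and -0.44 for RRP46, a subunit of the exosome ring. Both were called here but not with library size alone as the scale, at -0.04 and -0.17, where the median of all genes was 0.32.

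**Figure D3:**
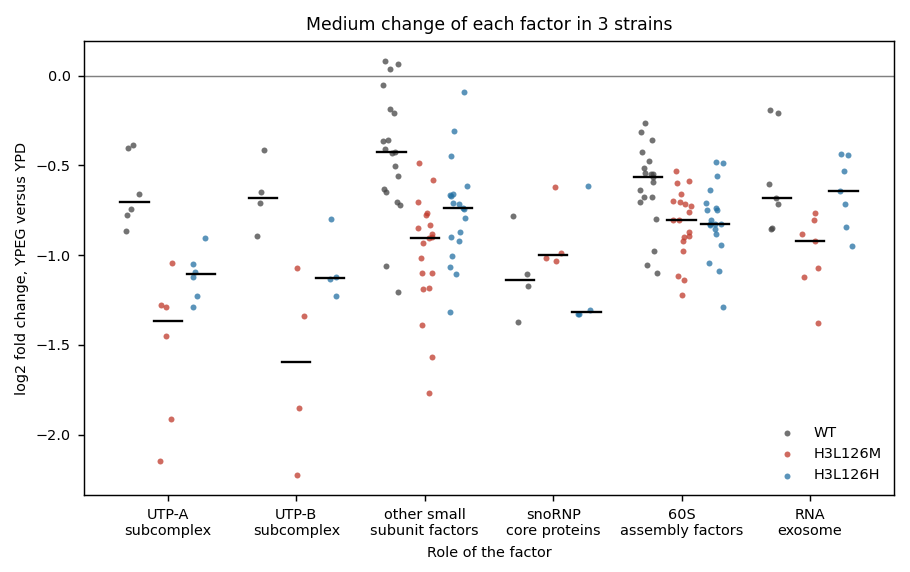
Log2 change from YPD to YPEG of each member in WT, H3L126M and H3L126H, by role group. Each point is a member, drawn alike whether or not it was called, and bars are group medians. The UTP-A and UTP-B medians are at -0.70 and -0.68 in WT, -1.37 and -1.59 in H3L126M and -1.11 and -1.13 in H3L126H, while the snoRNP core medians are -1.14 in WT and -1.31 in H3L126H.

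Other genes of the same process followed a like course from YPD to YPEG. Among 35 small subunit assembly factors with other names, 27 were lower in WT, 34 in H3L126M and 35 in H3L126H, and none was higher. Of 52 factors of 60S assembly with other names, 42, 51 and 51 were lower, and 1 was higher in WT. The 11 genes for subunits and initiation factors of RNA polymerase I had medians of -0.77, -1.35 and -1.06, with 8, 11 and 11 lower. Cytosolic ribosomal protein genes, the 137 RPL, RPS and RPP genes, had a median of -1.07 in WT with 127 lower, of -0.68 in H3L126M with 123 lower and 2 higher, and of -0.98 in H3L126H with 128 lower and 1 higher. The 68 mitochondrial ribosomal protein genes moved the other way, with medians of 1.09, 1.09 and 0.93. Among 10 regulators of ribosome genes, 4 were higher and none lower in WT, and 3 were higher with 5 and 4 lower in H3L126M and H3L126H.

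The next comparison asks how H3L126M differed from WT in the oxidative medium. In YPEG, 44 members were lower in H3L126M and none was higher, with a median log2 difference of -0.51 and a range of -1.34 to 0.11. Over all 6022 genes tested, 36.2% were called and 19.0% were called lower, and the median was 0.01. At least a 2-fold difference was called for 5 members, UTP6, UTP18, UTP15, UTP9 and UTP25, against 4.37% of all genes. Every UTP-A, UTP-B and exosome gene was lower, with medians of -0.80 for UTP-A, -1.11 for UTP-B and -0.44 for the exosome. Of the 19 other small subunit factors 17 were lower (median -0.58), and of the 19 factors of 60S assembly 10 (median -0.37). None of the 4 snoRNP core genes was called, and their median was -0.07. Leaving out single libraries gave 36 to 49 called members. Without WT YPEG replicates 1 and 2, 43 were lower and 1 higher, and without replicates 3 and 4, 41 were lower.

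UTP6 in YPEG had 44.1, 60.1, 82.1 and 70.5 CPM in WT, 14.5, 19.7, 32.0 and 33.9 CPM in H3L126M and 52.7, 58.3, 39.9 and 56.5 CPM in H3L126H. Every H3L126M library lay below every WT library, and H3L126H overlapped WT. On the log2 scale H3L126M differed from WT by -1.34 (SE 0.24, edgeR adjusted p = 0.000804). UTP18 (YJL069C, chromosome X 310922-312706), a UTP-B subunit that also contacts the exosome cofactor Mtr4, had 93.0, 108, 115 and 106 CPM in WT and 38.1, 34.6, 51.1 and 49.9 CPM in H3L126M. The H3L126M libraries were all lower than those of WT, and H3L126H, at 103, 102, 84.5 and 91.4 CPM, overlapped WT. The log2 difference between H3L126M and WT was -1.27 (SE 0.12, edgeR adjusted p = 7.44e-06). UTP15 had 68.6, 78.6, 74.5 and 73.5 CPM in WT, 23.0, 26.7, 43.1 and 36.5 CPM in H3L126M and 84.2, 78.6, 63.1 and 71.9 CPM in H3L126H. Here too the H3L126M libraries formed a separate low group, with a log2 difference from WT of -1.18 (SE 0.16, edgeR adjusted p = 9.78e-05). UTP9 and UTP25 had differences of -1.08 and -1.02.

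In contrast to these genes, the mRNAs of the box C/D proteins lay within the WT range, which was wide. NOP56 had 405, 380, 391 and 396 CPM in H3L126M in YPEG, against 439, 447, 339 and 250 CPM in WT. NOP58 had 346, 321, 334 and 357 CPM against 421, 464, 345 and 241 CPM. NOP1 had 458 to 474 CPM against 396 to 663 CPM. In each of these genes, WT replicates 1 and 2 were higher than replicates 3 and 4. The cytosolic ribosomal protein genes had a median difference of 0.18 in this comparison, with 4 of 137 higher and 6 lower. The RNA polymerase I genes had -0.70 with 9 of 11 lower, the other 60S factors -0.53 with 44 of 52 lower and the other small subunit factors -0.49 with 25 of 35 lower. The stress list had a median of 0.38 in the same comparison, with 4 of 14 genes higher and 1 lower, and its part in the result was not tested.

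**Figure D4:**
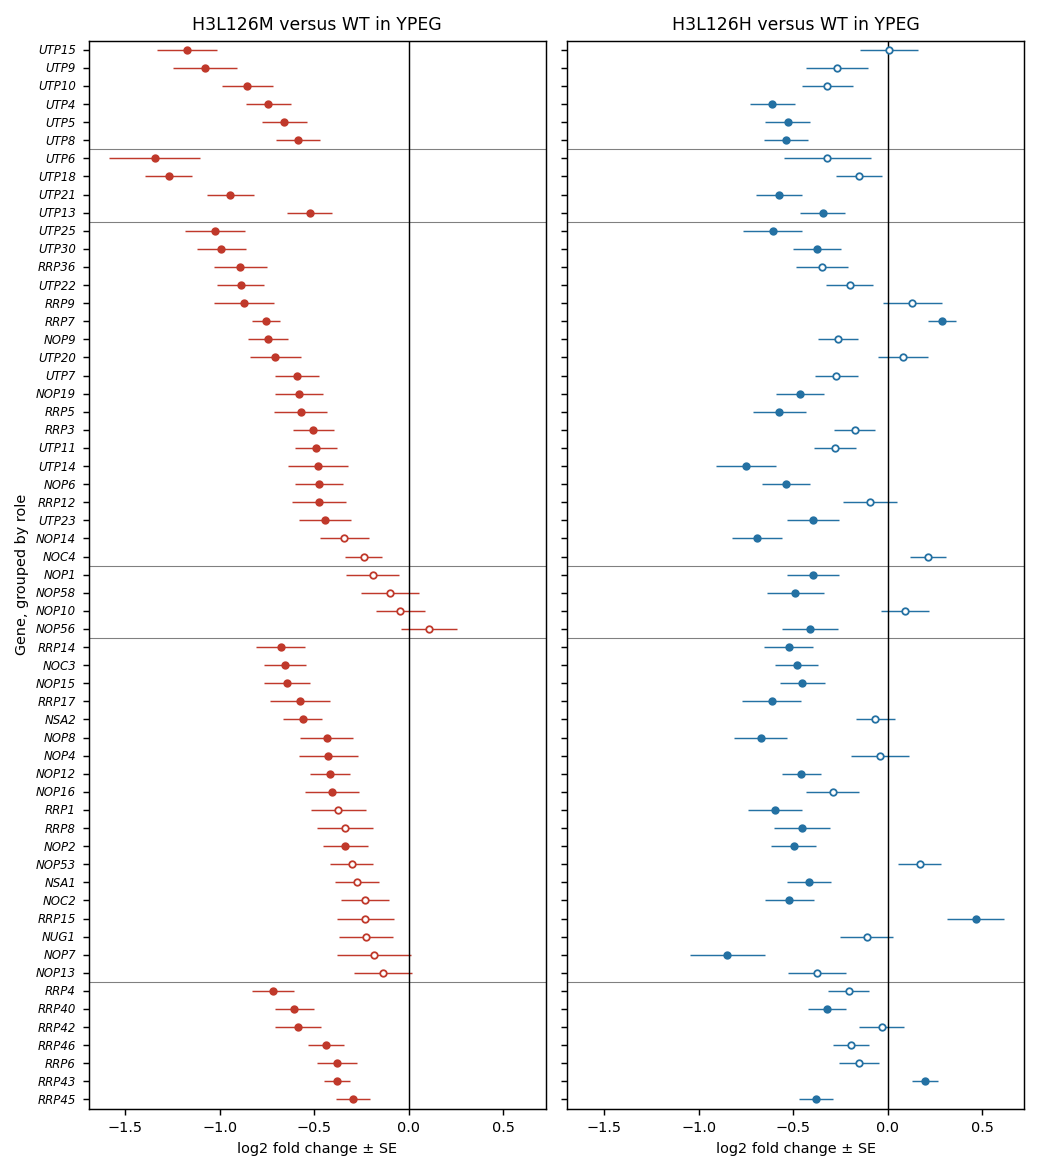
Log2 difference of each member between H3L126M and WT and between H3L126H and WT in YPEG, by role group; filled points are called at an edgeR adjusted p below 0.05 and open points are not. In H3L126M, the UTP-B genes are lowest, with UTP6 at -1.34 and UTP18 at -1.27, and the 4 snoRNP core genes lie near 0 and are not called.

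Whether the change between media itself differed from WT was tested as an interaction, the log2 change from YPD to YPEG in a mutant minus that in WT. For H3L126M, 26 members had a negative interaction and none a positive one (median -0.40), where 24.7% of all 6082 genes were called and 13.6% were called negative. These were all 6 UTP-A genes, 3 of 4 UTP-B genes, 11 of the 19 other small subunit factors, 3 of 19 factors of 60S assembly, 3 of 7 exosome genes and none of the snoRNP core. UTP15 had the largest value (-1.37, SE 0.24, edgeR adjusted p = 0.000357), followed by UTP6 (-1.33, SE 0.29, edgeR adjusted p = 0.00257) and UTP25 (-1.18, SE 0.25, edgeR adjusted p = 0.00179). In UTP25, the YPEG libraries of H3L126M had 64.1, 88.7, 109 and 120 CPM, below its YPD libraries at 203, 212, 191 and 212 CPM, whereas the WT values in both media overlapped. Without WT YPD replicates 1 and 2, the interaction was negative for 13 members (median -0.24), and without replicates 3 and 4 for 37 (median -0.61). The share of all genes called in these fits is not given.

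For H3L126H, 5 members had a negative interaction (median -0.23), where 19.4% of all genes were called and 9.27% were called negative, so that the members' count was no larger a share than that of all genes. These were UTP25 (-0.82, SE 0.25, edgeR adjusted p = 0.0224), the UTP-B protein UTP21 (-0.71, SE 0.20, edgeR adjusted p = 0.0173), the large UTP-A scaffold UTP10 (-0.65, SE 0.23, edgeR adjusted p = 0.0494), UTP14 and UTP4. UTP21 had 252, 252, 383 and 434 CPM in WT in YPD, 218, 269, 291 and 214 CPM in WT in YPEG, 375, 356, 363 and 357 CPM in H3L126H in YPD and 148, 193, 162 and 165 CPM in H3L126H in YPEG. The H3L126H groups were separate, and the WT groups overlapped. This count depended on the WT libraries in YPD. It was 0 without replicates 1 and 2, 32 without replicates 3 and 4, 22 without replicate 4, 15 without replicate 3 and 3 without replicate 2. Of the WT libraries in YPEG, leaving out replicate 1 or replicate 4 gave 9, replicate 2 gave 3 and replicate 3 gave 1. Leaving out replicate 1, 2 or 3 of H3L126M in YPD gave 12 each, and leaving out single H3L126H libraries gave 2 or 3, other than replicate 2 in YPEG. The call of UTP10 was lost when any single library was left out other than WT YPD replicates 3 and 4, H3L126M YPD replicates 1, 2 and 3, WT YPEG replicate 4, H3L126M YPEG replicate 1 and H3L126H YPEG replicate 2, and the call of UTP25 without WT YPEG replicate 3, at -0.72. UTP10 was also not called with the replicate number as a block (-0.66, edgeR adjusted p = 0.0608), with the chromosome medians removed (-0.60, edgeR adjusted p = 0.0698), with only the libraries compared (-0.64, edgeR adjusted p = 0.0847) or with no filter on low counts (-0.65, edgeR adjusted p = 0.0504).

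In the fermentative medium H3L126M differed little from WT in these genes. There, 6 members were lower and none higher, with a median of -0.10, where 14.6% of all 5976 genes tested were called and 6.74% were called lower. NOP7 (YGR103W, chromosome VII 695417-697234), which acts with Erb1 and Ytm1 in 60S assembly, had 1207, 1202, 1274 and 1243 CPM in WT and 846, 879, 979 and 1034 CPM in H3L126M. The groups did not overlap (-0.38, SE 0.07, edgeR adjusted p = 0.00209). RRP17 had 19.8, 19.4, 18.9 and 25.5 CPM in WT and 15.9, 15.2, 16.2 and 14.9 CPM in H3L126M (-0.40, SE 0.11, edgeR adjusted p = 0.0298), and its highest value was that of WT replicate 4, without which the call was lost at -0.30. NOP6, an RNA-binding protein of early 40S assembly, had 205, 200, 234 and 221 CPM in WT and 152, 146, 185 and 193 CPM in H3L126M (-0.32, SE 0.09, edgeR adjusted p = 0.0309). The call of RRP17 was also lost without H3L126M replicate 1, 2 or 4 and that of NOP6 without WT replicate 3 or H3L126M replicate 1 or 2. NUG1, NOP13 and NOP58 were the other members called. The count rested on which WT libraries entered: 39 members were lower without replicates 1 and 2 (median -0.26), while 15 were higher and 2 lower without replicates 3 and 4 (median 0.06). The share of all genes called in these fits is not given, so a change over all genes cannot be told apart from that of the members. The count of members was 10 without WT replicate 1 and 3 without H3L126M replicate 1. With library size alone as the scale, where the median of all genes moved to 0.14, none of the 6 lower calls remained and 1 member was called higher (median 0.04). RRP17 was also not called with the replicate number as a block (-0.40, edgeR adjusted p = 0.0592) or with only the libraries compared (-0.41, edgeR adjusted p = 0.0666), and NOP7 not in the fit of all 24 libraries (-0.40, edgeR adjusted p = 0.111). NOP6 was not called with only the libraries compared (-0.33, edgeR adjusted p = 0.0836) or in the fit of all 24 libraries (-0.35, edgeR adjusted p = 0.0564).

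The comparisons with H3L126H hold a feature of the whole genome. The genes of chromosomes II, III, V and XVI were higher as a whole in H3L126H, with chromosome medians of 0.42, 0.20, 0.23 and 0.41 in YPD and 0.41, 0.27, 0.20 and 0.37 in YPEG, against 0.01 and 0.00 over all genes tested in YPD and YPEG. Of the members, 13 lie on these 4 chromosomes: UTP20 on II, RRP7 and RRP43 on III, NOP16, NUG1, UTP7 and NSA2 on V, and RRP12, NOP4, NOP53, RRP9, RRP15 and NOC4 on XVI. The other 46 lie elsewhere. The other nuclear chromosomes had medians from -0.17 (VII) to 0.05 (X) in YPD and from -0.15 (IV) to 0.06 (I) in YPEG. On any chromosome, the difference of a member and that of its chromosome cannot be told apart by this test. Values with the chromosome median removed from H3L126H are therefore given beside it.

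In YPD, H3L126H had 10 members higher and 16 lower than WT (median -0.04), where 44.6% of all 5976 genes were called, 24.5% higher and 20.1% lower. Both directions together, the members called were no larger a share than that of all genes. Of the 10 higher members, 9 lie on the 4 chromosomes: UTP20, RRP7, NOP16 and all 6 of chromosome XVI. UTP20 (YBL004W, chromosome II 227636-235117) had 684, 748, 838 and 795 CPM in H3L126H, above all WT libraries (0.85, SE 0.21, edgeR adjusted p = 0.00518). RRP9 (YPR137W, chromosome XVI 802359-804080), a protein of the U3 snoRNP, had 101, 99.0, 148 and 178 CPM in WT and 224, 224, 212 and 228 CPM in H3L126H (0.81, SE 0.15, edgeR adjusted p = 0.000705). NOC4 (YPR144C, chromosome XVI 819765-821423) had 168, 165, 189 and 225 CPM in WT and 279, 277, 267 and 247 CPM in H3L126H (0.56, SE 0.09, edgeR adjusted p = 0.000206). In each of these genes all H3L126H libraries lay above all WT libraries. With the chromosome medians removed, none of the 3 calls remained, at 0.43 for UTP20, 0.39 for RRP9 and 0.15 for NOC4, and 3 of the 59 members were then higher and 5 lower. The higher member on another chromosome was UTP15 on chromosome XIII, at 0.51.

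All 16 lower members lie on other chromosomes, and these calls too cannot be told apart from the difference of the chromosome. The chromosome median was -0.17 for VII, which holds NOP7, and -0.16 for IV, which holds RRP17 and NOP6. With the chromosome medians removed fewer members were lower, as given above. NOP7 had 799, 756, 832 and 732 CPM in H3L126H in YPD, well below the WT libraries, at 1202 to 1274 CPM (-0.61, SE 0.07, edgeR adjusted p = 1.82e-05). RRP17 had 15.7, 12.8, 15.5 and 14.3 CPM (-0.47, SE 0.12, edgeR adjusted p = 0.00493) and NOP6 had 142, 157, 165 and 151 CPM (-0.44, SE 0.09, edgeR adjusted p = 0.00189). Both were below all WT libraries, and RRP17 was no longer called with the chromosome medians removed, at -0.31. By role, 8 of 19 factors of 60S assembly were lower and 4 higher, and 4 of the 19 other small subunit factors were lower and 5 higher. The split also moved with the WT libraries, to 5 higher and 31 lower without replicates 1 and 2 (median -0.27) and to 25 higher and 10 lower without replicates 3 and 4 (median 0.11). With library size alone as the scale, where the median of all genes moved to 0.10, 16 members were higher and 9 lower (median 0.05).

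In YPEG, 30 members were lower and 3 higher in H3L126H than in WT (median -0.35), where 36.4% of all 6022 genes were called, 17.7% lower and 18.7% higher. The 46 members on other chromosomes had a median of -0.41 with 30 lower and none higher, and the 13 on the 4 chromosomes a median of 0.08 with none lower and 3 higher. With the chromosome medians removed, 21 members were lower and none higher. Without WT YPEG replicates 1 and 2, 29 were lower and 2 higher, and without replicates 3 and 4, 22 were lower and 1 higher. NOP7 in YPEG had 508, 641, 734 and 413 CPM in WT, 517, 690, 405 and 393 CPM in H3L126M and 263, 389, 323 and 302 CPM in H3L126H. Its H3L126H libraries were all below those of the other 2 strains (-0.85 against WT, SE 0.20, edgeR adjusted p = 0.00445). UTP14 (YML093W, chromosome XIII 83090-85789), which activates the helicase Dhr1, had 321, 366, 505 and 337 CPM in WT and 181, 259, 235 and 236 CPM in H3L126H (-0.75, SE 0.16, edgeR adjusted p = 0.00246). NOP14 (YDL148C, chromosome IV 188154-190586), the partner of NOC4, had 267, 313, 375 and 252 CPM in WT and 161, 207, 200 and 181 CPM in H3L126H (-0.69, SE 0.13, edgeR adjusted p = 0.00123). In both genes the groups did not overlap.

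By role, the snoRNP core had 3 of 4 genes lower in H3L126H in YPEG (median -0.40), the 60S factors 12 of 19 with 1 higher (median -0.45), UTP-A 3 of 6 (median -0.42), UTP-B 2 of 4 (median -0.33), the other small subunit factors 8 of 19 with 1 higher (median -0.28) and the exosome 2 of 7 with 1 higher (median -0.19). The 3 higher members were RRP15 (0.47, edgeR adjusted p = 0.0243), RRP7 (0.29, edgeR adjusted p = 0.00817) and RRP43 (0.20, edgeR adjusted p = 0.0336). RRP7 (YCL031C, chromosome III 64675-65568) had 114, 129, 118 and 128 CPM in WT and 152, 146, 145 and 154 CPM in H3L126H, which did not overlap. None of these 3 calls remained with the chromosome medians removed, and RRP43 then turned to -0.070. RRP15 was not called without WT replicate 3 (0.42) or 4 (0.39) or H3L126H replicate 1 (0.46) or 2 (0.34). RRP43 kept its call only without WT replicate 2 among the 8 libraries compared, at 0.18 to 0.21 without each of the others. The stress list had a median of 0.70 in this comparison, with 7 of 14 genes higher, and cytosolic ribosomal protein genes had -0.27 with 42 of 137 lower and 1 higher; their part in the result was not tested.

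**Figure D5:**
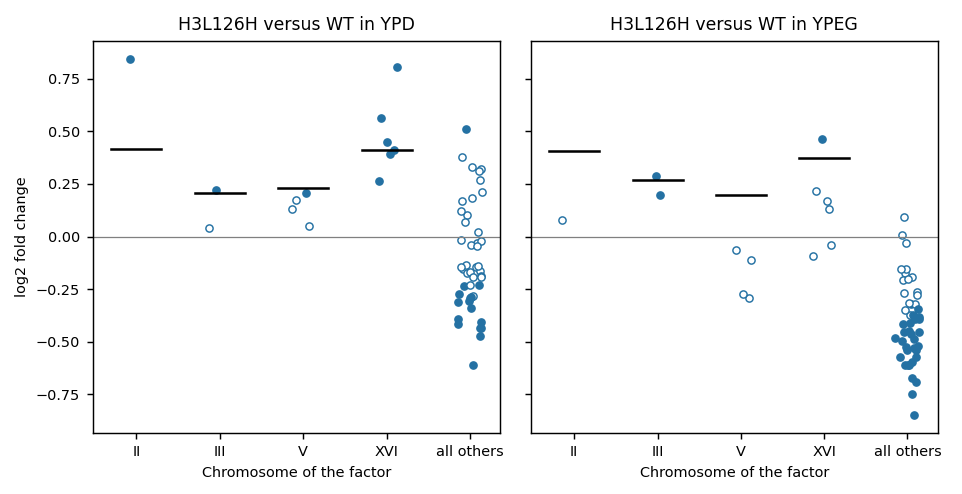
Log2 difference of each member between H3L126H and WT by the chromosome it lies on, in YPD and in YPEG; filled points are called at an edgeR adjusted p below 0.05, open points are not, and black bars give the median of all tested genes of that chromosome. The bars of chromosomes II, III, V and XVI are at 0.20 to 0.42; their 13 members lie at 0.04 to 0.85 in YPD and at -0.29 to 0.47 in YPEG, where RRP7 and RRP15 are above their bars and the others below, and the lower calls lie on the other chromosomes.

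The mutants were also compared with each other. In YPD, 13 members were lower and 2 higher in H3L126M than in H3L126H (median -0.02), where 35.7% of all 5976 genes were called, 19.4% lower and 16.2% higher. Here too the members called in both directions together were no larger a share than that of all genes. Of the 13 lower members, 12 lie on the 4 chromosomes, led by UTP20 (-0.95), RRP9 (-0.78) and RRP15 (-0.69), and with the chromosome medians removed a single member was called. The values of RRP15 (YPR143W, chromosome XVI 818323-819075) were 51.0, 46.7, 63.2 and 57.8 CPM in H3L126M and 79.6, 79.4, 95.97 and 91.3 CPM in H3L126H, without overlap. The 2 higher members were NOP14 (0.29, edgeR adjusted p = 0.00840) and NOP7 (0.24, edgeR adjusted p = 0.0159), and neither was called with the chromosome medians removed, at 0.13 and 0.07. With library size alone as the scale 11 members were lower and 4 higher. The call of NOP7 was lost without H3L126M replicate 3 or H3L126H replicate 4, at 0.21 each.

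In YPEG, 25 members were lower and 3 higher in H3L126M than in H3L126H (median -0.19), where 40.6% of all 6022 genes were called, 21.2% lower and 19.4% higher. UTP15 (-1.18, SE 0.16, edgeR adjusted p = 4.62e-05) and UTP18 (-1.12, SE 0.12, edgeR adjusted p = 9.86e-06) had the largest differences, and for both the H3L126M libraries lay below those of WT and H3L126H. RRP7 had 67.0, 68.6, 73.3 and 77.8 CPM in H3L126M and differed by -1.04 (SE 0.07, edgeR adjusted p = 2.16e-07). By role, 3 of 6 UTP-A genes, 3 of 4 UTP-B genes, 12 of the 19 other small subunit factors, 4 of 7 exosome genes and 3 of 19 factors of 60S assembly were lower. The higher members were NOP7 (0.67, edgeR adjusted p = 0.0145), NOP56 (0.52, edgeR adjusted p = 0.0116) and NOP14 (0.35, edgeR adjusted p = 0.0432). With the chromosome medians removed 23 were lower and 1 higher, and NOP7 (0.52) and NOP14 (0.20) were not called. NOP7 lost its call without H3L126M replicate 2 (0.47) or H3L126H replicate 1 (0.58), and NOP14 without WT replicate 2, H3L126M replicate 1, 2 or 3 or H3L126H replicate 1, 3 or 4, at 0.25 to 0.39.

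The members also varied together among replicates. After the mean of each group was removed, the median correlation over the 1711 pairs of members across the 24 libraries was 0.51, against 0.87 over 9316 pairs of cytosolic ribosomal protein genes and 0.00 over all pairs of genes tested. The points share libraries and scaling, so these are descriptions. The medians of members with and without the promoter elements are given with no test, since 5 members had neither core. In H3L126M relative to WT in YPEG, the 32 members with both cores had a median of -0.50 and the 5 with neither -0.59, and from YPD to YPEG in WT the medians were -0.55 and -0.68. They lay further apart in H3L126H relative to WT in YPEG, at -0.45 with both cores, -0.28 with PAC alone (17 members), 0.01 with RRPE alone (5 members) and -0.20 with neither, and in H3L126M relative to H3L126H in YPEG, at -0.14 with both and -0.56 with neither. The interaction of H3L126H had medians of -0.27 and -0.04. The classes differ in chromosome and role. Those with RRPE alone include RRP7 on III and NOP53 on XVI. Those with neither are RRP42, RRP45 and RRP46 of the exosome, UTP22 and UTP30, none on II, III, V or XVI. In comparisons with H3L126H, a promoter class cannot be told apart from the chromosomes or roles of its members. Class medians with the chromosome medians removed are not given, and a link to the elements was not tested.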

How the data were processed

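Stranded poly(A) mRNA-seq libraries were analysed from 24 samples. The authors aligned reads to sacCer3 with HISAT2 and deposited counts of reads per ORF made with featureCounts; these raw counts were used, and the normalized counts that the authors also deposited (DESeq2 size factors) were not. All 24 count columns matched a sample, and replicates are separate experiments. Groups come from the labels.

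TMM-scaled counts entered edgeR (quasi-likelihood F test, version 4.0.16 under R 4.3.3), with all genes that passed its filter at a minimum count of 10 in 1 fit. Strains were compared on the 12 libraries of a medium, media and interactions on all 24. A gene was called below 0.05 after Benjamini-Hochberg adjustment over all genes tested. CPM are on 1 TMM scale over 24 libraries, and library medians used log2 of CPM plus 0.5. Strain differences in H3L126H were also fitted with the median of each chromosome removed. DESeq2 (version 1.42.0), other scalings, filters and thresholds, a replicate block and leaving out libraries were alternatives; leaving out pairs of WT libraries was chosen after seeing the data. Tests were run on simulated counts first: for H3L126M versus WT in YPEG, with 5986 genes tested, 96% of genes changed by 1 on the log2 scale were recovered and 64% of those changed by 0.5. For the interaction of H3L126M, with 6034 genes tested, 85% and 32% were recovered. The simulated libraries were drawn independently, without the pairs seen among the WT libraries, so recovery in the real data may differ. Python 3.11.15, pandas 2.3.3, numpy 2.4.6 and matplotlib 3.10.9 were used.

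Members follow the naming rule, all 59 with a RefSeq gene. NSA3 is listed in the table as CIC1 and was therefore not a member. Role groups and other lists were written from knowledge of the pathway, and were chosen with earlier results of these data known. Genes named with values are the 3 largest falls and 3 largest rises or smallest falls between media, and up to 3 called members in each direction between strains and up to 3 for each interaction. Low counts limit precision, and errors cover the spread between libraries of 1 strain each.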

Additional observations from a re-analysis of the deposited data

Results flagged for a closer look

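The 4 libraries of each strain and medium were screened for each gene named with values and for the median of all members, 150 sets in all. Members not named were not screened. In 6 of the 150 sets a single library lay far from the other 3, where chance alone gives about 5% of independent sets. The sets share libraries, so they are not independent. In each of these the distant library was the high one. UTP9 had 318 CPM in H3L126H YPD replicate 1 against 277 to 281 CPM in the others, and NOP14 had 370 CPM in the same library against 331 to 336 CPM. NOP14 also had 284 CPM in H3L126M YPEG replicate 2 against 217 to 225 CPM. UTP14 had 503 CPM in H3L126M YPD replicate 4 against 441 to 451 CPM. RRP17 had 25.5 CPM in WT YPD replicate 4 against 18.9 to 19.8 CPM, and NOC4 had 187 CPM in H3L126H YPEG replicate 2 against 153 to 158 CPM.

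The change between media differed from WT by the test of the interaction in edgeR for 26 members in H3L126M and 5 in H3L126H, out of 59. All of these values were negative. Over all genes tested, 13.6% had a called negative interaction with H3L126M and 9.27% with H3L126H, and the 5 members in H3L126H were no larger a share than that. In H3L126M, those of the UTP-A genes were UTP15 -1.37, UTP9 -1.17, UTP10 -0.88, UTP4 -0.66, UTP5 -0.62 and UTP8 -0.59. The UTP-B genes had UTP6 -1.33, UTP18 -1.14 and UTP21 -0.93. Among other small subunit factors the values were UTP25 -1.18, RRP36 -1.08, UTP22 -0.98, RRP9 -0.88, UTP30 -0.85, NOP9 -0.71, RRP7 -0.67, NOP19 -0.53, UTP11 -0.48, UTP7 -0.47 and RRP3 -0.45. The exosome genes were RRP4 -0.71, RRP40 -0.57 and RRP42 -0.53, and the 60S factors RRP14 -0.57, NOC3 -0.55 and NOP15 -0.49. In H3L126H they were UTP25 -0.82, UTP21 -0.71, UTP10 -0.65, UTP14 -0.56 and UTP4 -0.52.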

How the results depend on the processing

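The number of members called, higher and lower together, was within 1.5 times the value given for 279 of 324 alternatives. A change in the balance of higher and lower members does not enter this number. For H3L126H versus WT in YPD, 36 were called without WT replicates 1 and 2 and 35 without replicates 3 and 4, against 26. Both are within 1.5 times, although the balance changed as given above. The alternatives include fits that left out a library of a group outside the comparison, which changes the count only through the shared fit. With library size only as the scale, the median of all genes rose to 0.38 between media in WT and 31 members were called (28 lower, 3 higher, member median -0.24); the interactions gave 44 (H3L126M) and 11 (H3L126H), and H3L126M versus WT in YPD 1, which was higher, while H3L126H versus WT in YPD split into 16 higher and 9 lower. With DESeq2 the H3L126H interaction gave 10, and with all 24 libraries fitted H3L126M versus WT in YPD gave 1. With only the libraries compared, that comparison gave 2 and H3L126M versus H3L126H in YPD 29. At an adjusted p below 0.01 the counts were 15 and 0 for the interactions of H3L126M and H3L126H, 1 and 17 for H3L126M and H3L126H versus WT in YPD, and 20 for H3L126H versus WT in YPEG. With chromosome medians removed they were 8 for H3L126H versus WT in YPD, 21 in YPEG, 1 for H3L126M versus H3L126H in YPD and 3 for the H3L126H interaction, and RRP43 turned to -0.070 in YPEG. Without WT YPD replicates 1 and 2 the H3L126M interaction gave 13, that of H3L126H 0, H3L126M versus WT in YPD 39 and H3L126M versus H3L126H in YPD 28. With all libraries, 16 of 59 members had an unadjusted p below 0.05 in edgeR for the H3L126H interaction, against 33.2% of all 6082 genes. Without WT YPD replicates 3 and 4 the H3L126H interaction gave 32, H3L126M versus WT 17 and H3L126M versus H3L126H 33. The share of all genes called without a pair is not given, so these counts cannot be set against it. Without WT YPEG replicates 1 and 2, or 3 and 4, the H3L126H interaction gave 10 or 3. The cause was not tested. Leaving out single libraries gave 44 to 52 members for the media in WT, 59 in H3L126M, 58 in H3L126H, 21 to 34 and 1 to 22 for the interactions of H3L126M and H3L126H, 3 to 10, 19 to 31 and 12 to 19 in YPD for H3L126M versus WT, H3L126H versus WT and H3L126M versus H3L126H, and 36 to 49, 24 to 34 and 21 to 30 in YPEG.

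Same-numbered libraries did not deviate together in every comparison, with correlations of -0.43 to 0.33, and replicate numbers were not taken as pairs. In H3L126H versus WT all same-numbered correlations were positive, at 0.07 to 0.10 in YPD and 0.04 to 0.30 in YPEG. The other-numbered ones there were -0.10 to 0.10 in YPD and -0.36 to 0.21 in YPEG. Whether a number marks libraries handled together is not given. With a replicate block the counts were 52, 59 and 58 for the media in WT, H3L126M and H3L126H, 26 and 6 for the interactions, 6, 27 and 15 in YPD and 47, 36 and 31 in YPEG, in the order above; the calls of RRP17 in H3L126M versus WT in YPD (-0.40, edgeR adjusted p = 0.0592) and UTP10 in the H3L126H interaction (-0.66, edgeR adjusted p = 0.0608) were lost. Low counts limited RRP17 most.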
